A study of Drosophila melanogaster with 3 samples.

Results

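Gr21a and Gr63a encode the carbon dioxide receptor of Drosophila melanogaster. They are 2 of 60 annotated gustatory receptor (Gr) genes and of 13968 protein coding genes, and were chosen by measured values, since each had a reproducible CG2120-GFP peak summit within 500 bp of an annotated transcription start site (TSS). Their peaks are therefore described below without a test. The data are from chromatin immunoprecipitation followed by sequencing (ChIP-seq) with an antibody against GFP, in 1 group of 3 biological replicates of whole embryos aged 18 to 24 h. The embryos came from a transgenic line that stably expresses CG2120, a gene for a C2H2 zinc finger protein, with enhanced GFP fused to its C-terminus; the labels give no wild type or other line as a second group. Which promoter drives the transgene and which cells make the fusion protein is not stated in the sources at hand. Whole embryos hold few CO2-sensing neurons among many other cells, so a peak cannot be placed in a cell type. The question is where CG2120-GFP sits at the receptor genes at the end of embryonic development.

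Most Gr proteins are taste receptors, but Gr21a and Gr63a act together in smell. In the adult they are made in the same class of antennal olfactory neuron, and both proteins are needed for that neuron to answer CO2. The pair is conserved in mosquitoes, where related receptors help females to find hosts. Larvae also sense CO2 with Gr21a and Gr63a, in neurons of the head that form during embryogenesis. In the antenna and maxillary palp, the number of CO2 neurons is kept low by the microRNA miR-279, which represses the gene nerfin-1, and by the Myb-MuvB chromatin complex.

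The sequences at the summits, from RefSeq's release 6 genome (build dm6, forward strand), are shown because the results turn on where these summits lie. At Gr21a the summit is at chr2L:781054, inside the first exon of the longer transcript, and the 30 bases of chr2L:781039-781068 have the summit base in capitals. The second run, chr2L:780918-780947, is a stretch of the same peak with the letters of the Myb motif (CAACGG, here on the reverse strand) in capitals. The third run, chr3L:3896873-3896902, holds the Gr63a summit at its base 7, and its capitals mark GGTCACAC, the letters of core promoter motif 1. The last run, chr3L:3896604-3896899, is the whole stretch of 296 bases between the annotated starts of Gr63a, which lies to its left on the reverse strand, and Lamtor4, which lies to its right on the forward strand. Its capitals mark those matches to the motifs described further on that lie wholly within it. The letters of motif 1 run past its end and stay in lower case. The summit is its base 276.
Gr21a summit: ttgctagaatgggaaGgtttaaaaccatgt
Gr21a Myb letters: gtttggggtcacCCGTTGgtcggtgtcagc
Gr63a and Lamtor4 summit: gtatctaaatggatctagtccGGTCACACt
Gr63a to Lamtor4: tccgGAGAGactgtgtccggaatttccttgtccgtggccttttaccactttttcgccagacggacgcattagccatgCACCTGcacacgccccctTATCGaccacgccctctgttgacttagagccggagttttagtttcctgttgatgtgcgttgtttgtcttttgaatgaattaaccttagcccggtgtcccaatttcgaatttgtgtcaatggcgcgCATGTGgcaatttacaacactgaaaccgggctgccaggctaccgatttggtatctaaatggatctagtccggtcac

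The 5 lists used here are the authors' peak lists in build dm6. The optimal list holds 8340 reproducible peaks, the list from the pooled replicates and those of replicates 1 and 2 hold 30000 each, and that of replicate 3 holds 27353. All 8340 optimal peaks are also the 8340 strongest of the pooled list, so these lists are no separate views of a peak. They hold no read counts, and the depth per sample is therefore unknown. Signal is the authors' value for each peak and has no common scale between lists, so ranks within a list are given beside it, with rank 1 the strongest. By their labels, the lists of the replicates and of the pool mix background with peaks, so the term strongest is used here for ranks up to 8340, as many peaks as the optimal list holds.

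At Gr21a (FBgn0041250, chr2L:780482-782885, forward strand, 4 exons, 447 codons), CG2120-GFP lay at an internal start site of the receptor gene itself. Gr21a has 2 annotated transcripts, with TSSs at 780482 and 781276, that share the same coding sequence and differ in the length of the 5' untranslated region (UTR), 815 against 21 bases. The summit at 781054 was 222 bp upstream of the second TSS and 572 bp downstream of the first. It was thus within the 500 bp window by the second TSS and outside it by the first. Within the longer transcript it lay in the 5' UTR, 242 bases before that UTR's end. The peak covered chr2L:780829-781278, so it ended just past the second TSS. No other annotated gene had a TSS within 500 bp of this summit, and the next TSS was that of CG13947, 1881 bp away.

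At Gr63a (FBgn0035468, chr3L:3894999-3896603, reverse strand, 3 exons, 489 codons), the summit lay in a promoter region shared with another gene and much nearer to that gene's start. The peak covered chr3L:3896654-3897103 with its summit at 3896879. This was 276 bp upstream of the annotated start of Gr63a and 21 bp upstream of the TSS of Lamtor4 (FBgn0035469, chr3L:3896900-3897498), which encodes a subunit of the Ragulator complex that anchors nutrient signalling at the lysosome. The starts of Gr63a and Lamtor4 are 297 bp apart and point away from each other. Gr63a has a single annotated transcript with 0 bases of 5' UTR, so its annotated start is its start codon, and its true TSS may lie further upstream. Within the whole annotation, 1083 of 4747 protein coding genes with a promoter summit (22.8%) had, like Gr63a, each such summit nearer to another coding gene's TSS than to their own.

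**Figure D1:**
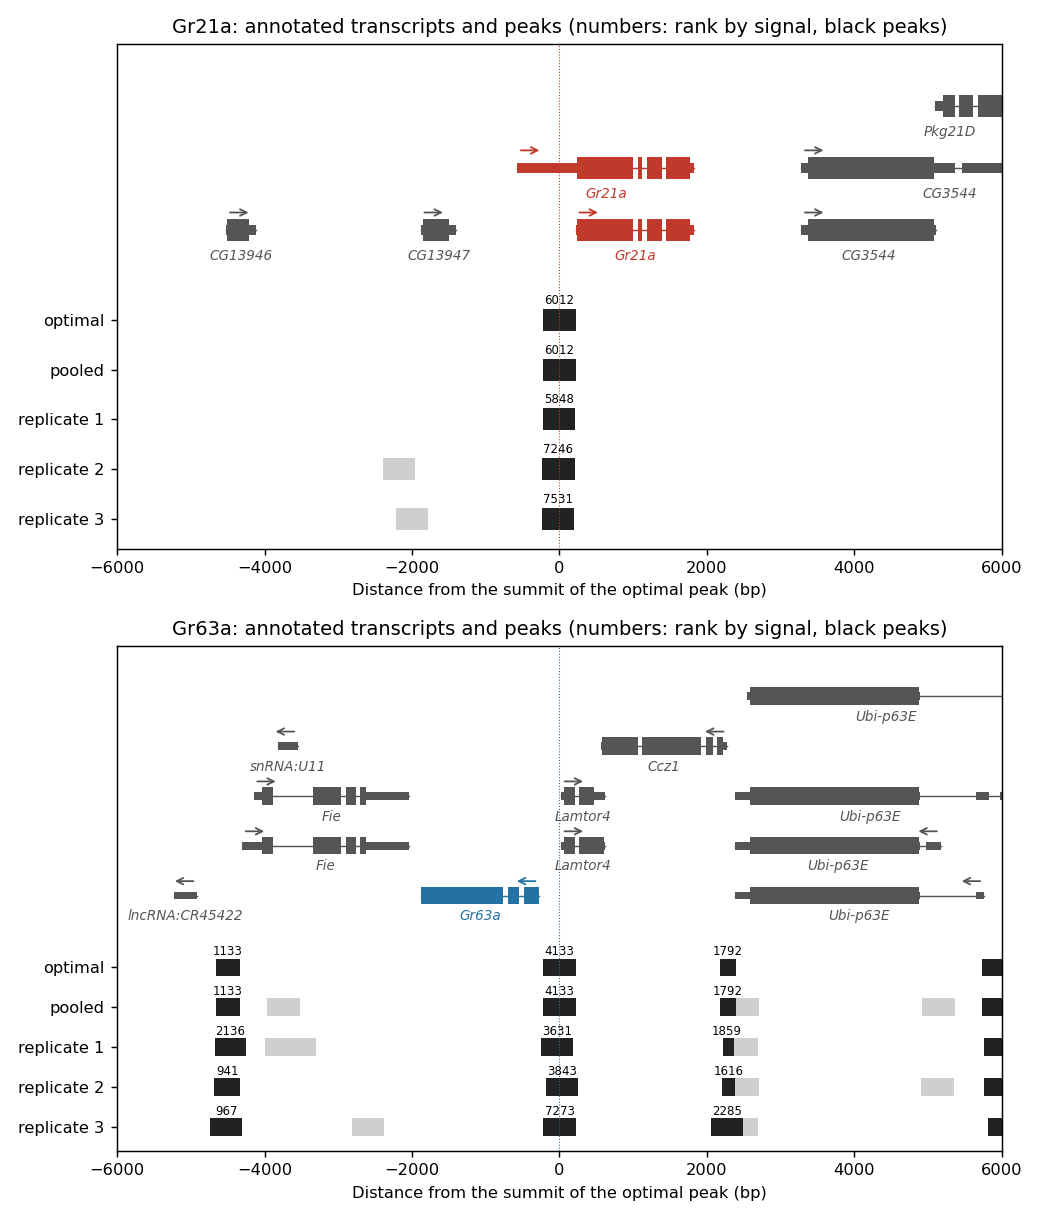
Maps of the Gr21a (upper) and Gr63a (lower) loci, with distance from the summit of the optimal peak in bp on the x axis, annotated transcripts above (tall boxes coding, low boxes untranslated, arrows TSSs) and the peaks of each list below. Black peaks are among the 8340 strongest of their list, with their rank, except at the right edge, and grey ones are weaker; the Gr21a peak lies between the gene's own TSSs, and the Gr63a peak lies at the start of Lamtor4.

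Both peaks were found among the strongest peaks of every replicate, at middle to low ranks. For Gr21a the signal was 169 in the optimal list, at rank 6012 of 8340. In the replicates its signal was 56.9 in replicate 1, 61.9 in replicate 2 and 37.0 in replicate 3, with ranks 5848, 7246 and 7531. None of the replicates had the Gr21a peak among its 5000 strongest.

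For Gr63a the signal was 238 in the optimal list, at rank 4133. Its signal was 86.1 in replicate 1, 110 in replicate 2 and 38.2 in replicate 3, with ranks 3631, 3843 and 7273. Replicates 1 and 2 placed the peak among their 5000 strongest, and replicate 3 placed it close to Gr21a. The mean rank was 6875 ± 901 for Gr21a and 4916 ± 2044 for Gr63a (SD, n = 3 each). Gr63a ranked above Gr21a by 2217 places in replicate 1, by 3403 in replicate 2 and by 258 in replicate 3. The ranges over the replicates, 5848 to 7531 for Gr21a and 3631 to 7273 for Gr63a, overlap.

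By the authors' −log10 q, replicate 3 stood apart for both peaks. By rank it stood apart for Gr63a only, since Gr21a had the near ranks 7246 and 7531 in replicates 2 and 3. Both peaks had the highest value their list gives in the optimal list (4.14), in replicate 1 (4.16) and in replicate 2 (4.22). In the optimal list 6897 of the 8340 peaks share that value, so it does not mark these peaks out. In replicate 3, where the highest value is 4.06, Gr21a had 2.78 and Gr63a had 2.93. In that list the signal was 1.10 times that of the peak at rank 8340 for Gr21a and 1.14 times for Gr63a. In replicate 1 the same ratios were 1.39 for Gr21a and 2.11 for Gr63a, and in replicate 2 they were 1.14 for Gr21a and 2.01 for Gr63a.

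Next to other promoter peaks the Gr21a peak was weak and the Gr63a peak was in the middle. Of the 4120 optimal peaks within 500 bp of a protein coding TSS, 23.3% ranked below Gr21a and 43.1% below Gr63a. Over the whole optimal list 27.9% ranked below Gr21a and 50.4% below Gr63a, and the median signal of that list was 236. The summits lay 222 bp from the nearest TSS of Gr21a and 276 bp from the annotated start of Gr63a. Of the 4120, measured to the nearest TSS of any coding gene, 79.2% were within 222 bp and 85.3% within 276 bp. By that measure the Gr63a summit lay 21 bp from a TSS, that of Lamtor4, so its 276 bp is no like comparison.

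The position of the summits was steady at Gr21a and varied more at Gr63a. At Gr21a the replicates placed the summit 223, 235 and 245 bp upstream of the second TSS (replicates 1, 2 and 3), a range of 22 bp. At Gr63a they placed it 246, 314 and 278 bp upstream of the annotated start, a range of 68 bp. The summit of replicate 2, at 3896917, was thus inside Lamtor4, and those of replicates 1 and 3 were upstream of it. Sonicated fragments measured 200 to 800 bp per the labels, and both optimal peaks have the width of 450 bp that 4674 of the 8340 optimal peaks share, with the summit at the middle.

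**Figure D2:**
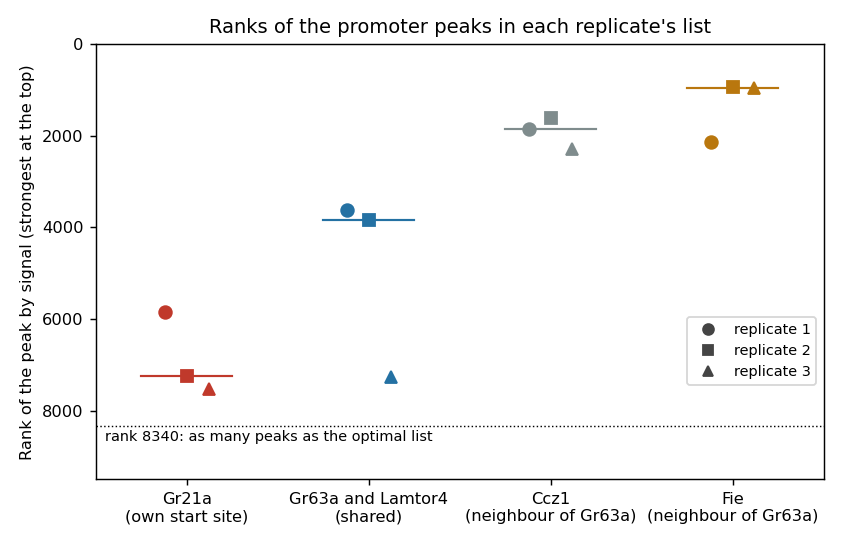
Rank by signal (y axis, strongest at the top) of the peaks at Gr21a, at Gr63a with Lamtor4, and at the neighbouring genes Ccz1 and Fie, with a symbol for each replicate and a bar at the median of the 3. The Gr21a peak ranked 5848 to 7531 and the Gr63a peak 3631 to 7273, all above the dotted line at rank 8340, and the neighbours' peaks ranked 941 to 2285.

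The 2 genes differ in their surroundings. Gr21a stood in a stretch with few peaks, where the nearest other optimal summits were 13440 bp to the left and 30533 bp to the right, and 90.1% of all optimal summits had a nearer neighbour than that. Its neighbours within 2 kb, CG13947 and CG3544, had no optimal summit within 500 bp of a TSS. The region of Gr21a and 2 kb around it held the 1 optimal summit and no other pooled one. A weak peak stood there in replicate 2, with its summit at position -1605 from the first TSS and rank 28661, and another in replicate 3, at position -1422 and rank 18545.

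Around Gr63a the neighbouring promoters carried stronger peaks. The nearest other optimal summits were 4499 bp to the left and 2282 bp to the right, against a median of 2280 bp to the nearest other summit over the optimal list. The first, with a signal of 606 (rank 1133), was 194 bp upstream of a TSS of Fie (FBgn0026592), which ends 165 bp from the end of Gr63a. The second, with a signal of 458 (rank 1792), was 5 bp upstream of the TSS of Ccz1 (FBgn0035470), which encodes a partner of Mon1 in late endosome maturation. The Fie peak ranked 2136, 941 and 967 and the Ccz1 peak 1859, 1616 and 2285 in replicates 1, 2 and 3. Neither of these neighbours showed the low rank in replicate 3 that Gr63a had. The minor spliceosome RNA gene snRNA:U11, inside Fie, had no optimal summit within 500 bp. The region of Gr63a and 2 kb around it held 1 optimal summit and 1 further pooled one, at rank 17870, and no list had a summit inside Gr63a itself.

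Counted over wider flanks, the contrast between the loci remained. With 15 kb on each side, 2 optimal summits fell at Gr21a and 5 at Gr63a, against a median of 3 for all protein coding genes (quartiles 1 and 5) and of 1 for the 60 Gr genes. With 50 kb on each side the counts were 7 at Gr21a and 13 at Gr63a, against a median of 9 (quartiles 5 and 13) for all protein coding genes and of 8 for Gr genes. These windows overlap between neighbouring genes, so the counts are not independent.

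Promoter summits were rare in the receptor families to which Gr21a and Gr63a belong. Of the 60 Gr genes 2 had one in the optimal list, which are Gr21a and Gr63a (3.33%, exact 95% interval 0.406 to 11.5), while the background over all protein coding genes was 34.0%. The members were chosen for these summits, so their count supports nothing by itself. In the strongest peaks of the replicates, 3 Gr genes were bound in replicate 1, 3 in replicate 2 and 2 in replicate 3, where the background was 33.6%, 34.3% and 33.0%. The additional gene in replicates 1 and 2 was Gr97a, at ranks 7290 and 7358. It stood at rank 25875 in replicate 3 and at 8978 in the pooled list, below the optimal list's end. Of the other Gr genes, those with the nearest optimal summit were Gr32a, a receptor for bitter compounds, at 749 bp and Gr64a, of the sugar receptor group, at 891 bp. Both are outside the 500 bp window.

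The distance from a gene to its nearest optimal summit, taken from its closest TSS, was 222 bp for Gr21a and 276 bp for Gr63a, and its median was 8583 bp over the 60 Gr genes. That median was 2888 bp over all protein coding genes. It was 17788 bp over the 59 odorant receptor (Or) genes, none of which was bound (0 of 59, where 3 counts would be a share of 5.08% and the exact 95% interval reaches 6.06%; counting error only). Over the 57 ionotropic receptor (Ir) genes it was 10042 bp, with 1 gene bound (1.75%). The background for both families was 34.0%. None of the 4 co-receptor genes Orco, Ir25a, Ir8a and Ir76b, whose products pair with the tuned receptors, had a summit within 500 bp. Their nearest summits were 745, 2569, 7062 and 1617 bp away. With 4 genes the exact 95% interval reaches 60.2%, a range that holds the background of 34.0%. A summit anywhere in the gene or 2 kb around it was found for 11 of 60 Gr genes (18.3%), 6 of 59 Or genes and 6 of 57 Ir genes, against a background of 52.2%. The 11 Gr genes were Gr21a, Gr63a, Gr10a, Gr32a, Gr39b, Gr59a, Gr64a, Gr66a, Gr89a, Gr94a and Gr97a, and of these Gr10a had 2 summits.

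**Figure D3:**
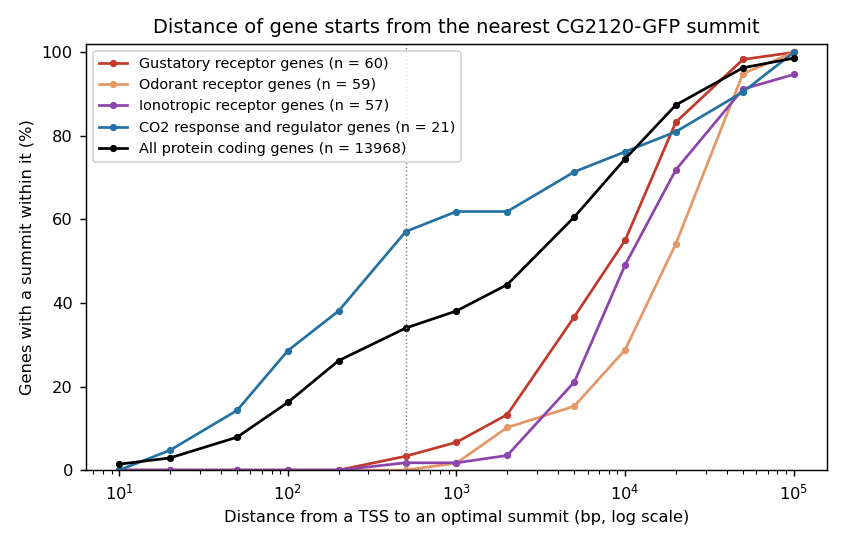
Share of genes (y axis, %) with an optimal summit within the distance on the x axis (bp, log scale) of a TSS, for the receptor families, the CO2 response and regulator genes and all protein coding genes. At the dotted line of 500 bp the share was 3.33% for Gr genes, 57.1% for the CO2 response and regulator genes and 34.0% for all protein coding genes.

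The bound receptor genes differ in whose start site the summit was closest to. Besides Gr21a and Gr63a, the bound Ir gene was Ir60e, with a signal of 466 (rank 1744), and ranks 1532, 1572 and 2166 in the replicates. Like Gr63a it lies head to head with a gene that is no receptor, CG13585, whose TSS was 43 bp from the summit and that of Ir60e 279 bp. At Gr21a alone among the 3 the nearest annotated TSS was that of the receptor gene itself. Of the 60 Gr genes 14 had another coding gene's TSS within 500 bp of their own. For 9 of these the partner was a receptor gene, and for 5 it was not, namely Gr61a with JMJD5, Gr63a with Lamtor4, Gr85a with Spn85F, Gr94a with p53 and Gr97a with CG5521. The promoters of Lamtor4 and p53 were bound. Gr94a starts 459 bp from a TSS of p53, the damage response transcription factor gene, but its own nearest summit was 2437 bp away.

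Among all protein coding genes, both arrangements had a higher bound share than the background of 34.0%. Of the 4309 genes that share a 500 bp TSS window with another coding gene, as Gr63a does, 60.3% had a promoter summit, and of the 9659 that do not, 22.2%. A summit in a shared window can count for both genes. Of the 2171 genes with TSSs over 500 bp apart, as Gr21a has, 54.4% were bound. The Gr genes of that kind were Gr21a, Gr23a, Gr28b, Gr39a, Gr64c and Gr64e, and of these Gr21a was bound. Genes with more TSSs have more windows in which a summit can fall.

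Promoter summits were also counted at genes known to act in the CO2 response or in setting which neurons make the receptor. Of 21 such genes, 12 had an optimal summit within 500 bp (57.1%, exact 95% interval 34.0 to 78.2), against the background of 34.0%. The 21 were listed with earlier results of these data known, so the share is a description. The interval covers counting error only and is no test against the background. The list holds a microRNA gene, mir-279, while the background covers protein coding genes only. In the strongest peaks of replicate 1, 10 of the 21 were bound (47.6%, background 33.6%), in those of replicate 2, 9 (42.9%, background 34.3%), and in those of replicate 3, 10 (47.6%, background 33.0%). The higher share did not hold in every setting. Without replicate 1, that is, counting optimal peaks that replicates 2 and 3 both rank among their strongest, 6 of the 21 were bound (28.6%), which is at the background of 28.9%. Without replicate 2 the number was 8 (38.1%, background 28.6%), and without replicate 3 it was 8 (38.1%, background 29.6%).

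Genes of the Myb-MuvB and dREAM complexes, which repress many genes, Gr63a in other olfactory neurons among them, made up 7 of the 12. Of the 9 on the list, 7 had an optimal summit at a TSS (77.8%, background 34.0%), and without replicate 1 the number was 5 (55.6%, background 28.9%). This group was drawn up with earlier results of these data known, so its share is a description. The bound ones were Dp (signal 1387), E2f2 (291), mip130 (268), Caf1-55 (254), mip120 (251), mip40 (217) and Rbf (174), and Myb and lin-52 were not bound. For E2f2 and mip130 the nearest annotated TSS was that of another gene, Mpp6 and Edem1. Myb itself had its nearest optimal summit 2814 bp away, though peaks stood within 500 bp of its TSS at ranks 8961, 11303 and 12099 in the replicates. The nearest summit of lin-52, 572 bp from its TSS, was just outside the window.

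Of the 5 genes on the list that act on the fate of the CO2 neuron, 3 were bound (60%, background 34.0%). These were mir-279, nerfin-1 and ttk, with weak peaks. Without replicate 1 the number was 0 (background 28.9%), and without replicate 2 it was 0 (background 28.6%). Leaving out replicate 3 gave 1, mir-279 (background 29.6%). In the stronger 4170 peaks of the optimal list the number was 0 (background 21.8%). The annotated entry of mir-279, chr3R:29215585-29215684, is that of the microRNA, so its start need not be the TSS of the primary transcript. The locus of mir-279 had a signal of 154 with the summit 308 bp away, nerfin-1 a signal of 133 at 447 bp, and ttk, a zinc finger repressor gene, 129 at 357 bp. Their ranks in replicates 1, 2 and 3 were 6388, 6192 and 9227 for mir-279, 9851, 10886 and 5473 for nerfin-1, and 8946, 8418 and 6982 for ttk, on both sides of rank 8340 in each case. The Snail family repressor gene esg and the homeodomain gene pros had no summit within 500 bp, at 69158 and 37150 bp, nor had the POU factor genes acj6 and pdm3, which set receptor choice in olfactory neurons, at 5095 and 57386 bp. Of the 5 signalling genes 2 were bound (40.0%, background 34.0%). Galphaq, the G protein subunit linked to the CO2 response, had a signal of 472 at a TSS it shares with CG45086, and the phospholipase C gene norpA had 136. The channel genes trp and trpl and the G protein gene Ggamma30A were not bound, at 16145, 2677 and 20833 bp.

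The bases around both summits held more G and C than most sites of CG2120-GFP. In the 300 bases centred on the summit the share of G and C was 48.7% at Gr21a and 44.3% at Gr63a. Over all 8340 optimal summits the median was 36.7% (quartiles 33.3 and 40.7), and 96.2% of the windows were lower than Gr21a and 88.6% lower than Gr63a. Over the 4120 summits at promoters the median was the same, 36.7%, with 87.0% of windows below Gr63a and a larger share below Gr21a. Around the 19275 distinct TSSs of protein coding genes the median was 41.7%, and 80.8% of those windows were lower than Gr21a and 62.2% lower than Gr63a.

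**Figure D4:**
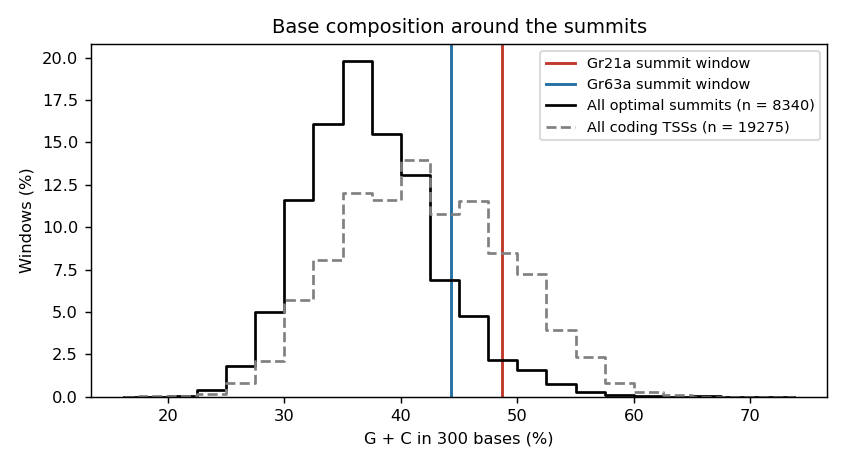
Share of G and C in windows of 300 bases (x axis, %) and the share of windows in each bin of the histogram (y axis, %), for the Gr21a and Gr63a summits (vertical lines), all optimal summits and all protein coding TSSs. The lines for Gr21a, at 48.7%, and Gr63a, at 44.3%, lie above the median of all optimal summits, 36.7%.

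The sequences shown earlier and their surroundings were searched on both strands for 10 motifs. In the 300 bases around the Gr63a summit, GGTCACAC, the letters of motif 1, which is bound by the zinc finger protein M1BP at promoters of broadly expressed genes, began 15 bases to the right of the summit and ran across the TSS of Lamtor4. This motif was in 4.68% of windows around optimal summits and in 6.30% of windows around TSSs. The GATA factor letters AGATAA began 42 bases to the right, and were in 19.7% of summit windows and 16.1% of TSS windows. The E-box CANNTG began 55 bases to the left, and was in 75.5% of summit windows and 78.0% of TSS windows. Around the Gr21a summit the matches were CAACGG (Myb) 124 bases to the left, in 6.87% of summit and 9.97% of TSS windows, GAGAG, of the Trl protein, 81 bases to the left, in 32.5% of summit and 33.5% of TSS windows, and CANNTG 114 bases to the right.

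Neither summit window held TATCGATA (the DRE, in 6.74% of summit and 7.08% of TSS windows), CGATA (the BEAF-32 core, which is also part of TATCGATA, in 40.8% of summit and 45.9% of TSS windows), CACGTG (an E-box that CANNTG includes, in 3.37% of summit and 4.13% of TSS windows), TATAAA (the TATA box, in 44.8% of summit and 36.9% of TSS windows) or TTCCCGC (E2F, in 2.35% of summit and 3.06% of TSS windows). In the stretch of 296 bases between Gr63a and Lamtor4, the capitals are GAGAG at bases 5 to 9, CANNTG at bases 78 to 83 and 221 to 226, and CGATA on the reverse strand at bases 96 to 100. The summit windows of Gr21a and Gr63a thus shared CANNTG and no other motif of the 10.

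Peaks most like those of the members in strength were found by comparing their ranks in the 3 replicates with those of 3778 other promoter peaks. For Gr21a the nearest was that of Apt1, whose ranks of 5739, 7176 and 7458 in replicates 1, 2 and 3 differed from those of Gr21a by at most 109 places. Others close to it were sn, which encodes the actin bundling protein fascin (170 places), CG1648 (221) and Patr-1 (441). For Gr63a the nearest were CG15803 (at most 350 places), btsz (369), Orc1, a subunit gene of the origin recognition complex (411), axed (446) and Arts (536). These likenesses are of rank alone, in 3 lists.

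With narrower or wider promoter windows the members' calls changed together. Within 200 bp neither Gr21a nor Gr63a, nor any other Gr gene, had a summit, against a background of 26.2%. Within 1000 bp both were bound, with Gr32a and Gr64a, 4 of 60 Gr genes, against a background of 38.1%. The promoter of Lamtor4 had its summit within either window. In the stronger 4170 peaks of the optimal list, where the background was 21.8%, Gr63a was still bound, by rank 4133, and Gr21a was not.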

How the data were processed

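The deposited files are peak lists in narrowPeak format for build dm6, called on each replicate, on the pooled replicates, and thresholded by irreproducible discovery rate (optimal list) from the replicate and pooled lists, per the deposited notes. A single control served for all lists. The tools for alignment and peak calling are not stated in the labels or headers. The authors' lists give a signal value and a −log10 q value per peak, as the deposited columns hold them. The dm3 lists were not used, since no dm3 annotation was at hand. Read files were not used, so depth is unknown and intervals cover counting error only.

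Summits were set 1-based from start and offset. Genes and TSSs came from Ensembl release 115 (release 6 genome) and sequence from RefSeq. Genes with an optimal summit at most 500 bp from a TSS are called bound; peaks of different lists were matched where their summits were at most 100 bp apart. Exact 95% intervals are Clopper-Pearson (scipy 1.17.1, Python 3.11.15, numpy 2.4.6, matplotlib 3.10.9). The assignment was tested on simulated summits. Members and gene lists were chosen with earlier results of these data known, and no test was made. Named genes are the members, their neighbours, receptor genes with a promoter summit in the optimal list or in a replicate's strongest peaks, all co-receptor and regulator genes, and the 5 peaks most alike in rank, of which 1 is not reported here; the other Gr genes named were chosen after their values were seen.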

Additional observations from a re-analysis of the deposited data

How the results depend on the processing

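Of 97 alternative values for 15 results, 78 stayed within 1.5 times the count or within the spread of the replicates and 19 did not. With a window of 200 bp, 0 of the members and 0 of the Gr genes were bound; with 1000 bp, 4 Gr genes were. In the stronger 4170 optimal peaks 1 member, 1 Gr gene and 6 of 21 regulator genes (28.6%) were bound, against 21.8% of all protein coding genes. With each replicate left out, the members stayed at 2 and the Gr genes at 2. The regulator genes were at 6 to 8, against 12 in the full list. These settings keep fewer optimal peaks (6318 to 6611) and call 28.6% to 29.6% of all protein coding genes. They filter the same optimal list by the ranks in the remaining replicates. Both members were among the strongest peaks of all 3 replicates, so the counts of 2 could not change. Without replicate 1 the regulator genes, at 28.6%, were no higher than the 28.9% of all protein coding genes. The median rank with a replicate left out was 6547 to 7388.5 for Gr21a (7246 with all) and 3737 to 5558 for Gr63a (3843 with all). At Gr63a a flank of 5 kb held 3 summits, and the pooled list held 2 within 2 kb. No paired analysis was possible because the study has 1 group. The unknown depth limits what weak or absent peaks can show.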
